A study of Saccharomyces cerevisiae with 6 samples.

Results

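The genes described here encode the enzymes that take apart RNA:DNA hybrids in budding yeast or keep them from forming, namely RNases H, helicases and topoisomerases. They are RNH1, RNH201, RNH202, RNH203, SEN1, PIF1, RRM3, MPH1, TOP1 and TOP2. They were chosen by name and not by a rule on their values, although earlier results of these data were known. All 10 matched a named probe set, 1 each, among the 5449 S. cerevisiae genes that the arrays measured by name. The strain was the haploid W303-1A of mating type a, which carries the alleles ade2-1, trp1-1, ura3-1, his3-11,15 and can1-100 and is also mutant at LEU2. Control cells (GAL-YRA1, titled WT) carried the plasmid pRS413::GAL-YRA1, from which the GAL1 promoter drives the intron-containing YRA1 gene. Overexpressing cells (GAL-YRA1Δi) carried pRS413::GAL-YRA1Δi, with the gene lacking its intron. Each group had 3 biological replicates, cultured first in raffinose and then for 4 hours in 2% galactose, and total RNA was hybridised to 1-colour arrays. Both groups thus received galactose and a galactose-driven YRA1, no array came from cells with an empty plasmid, and the labelled genotype lists no change at the chromosomal YRA1 gene.

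R loops are structures in which a transcript pairs with its template and leaves the other DNA strand unpaired. They can form behind RNA polymerase when the nascent RNA is poorly packaged, and they can stall replication forks. RNases H cut the RNA of the hybrid, helicases unwind it, and topoisomerases remove the negative supercoils that favour it. Yra1 binds nascent RNA as an mRNA export adaptor, and the study examined RNA:DNA hybrids and the Rrm3 helicase in cells with an excess of it. Whether the mRNAs of the enzymes that remove hybrids differed between GAL-YRA1Δi and GAL-YRA1 cells was therefore asked of these arrays. The study inferred a role of hybrids from recombination and Rad52 foci in cells that overexpressed RNH1, and it mapped Rrm3 protein on chromatin. These were separate experiments and did not measure these mRNAs.

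Values are RMA signals on the log2 scale, that is, background-corrected and normalised brightness of a probe set, and differences are GAL-YRA1Δi minus GAL-YRA1 on that scale. The overexpressed gene itself averaged 13.34 ± 0.11 on the control arrays and 14.54 ± 0.08 on those of overexpressing cells (SD, n = 3 each), a 2.30-fold difference (adjusted p = 0.0102 in limma). Leaving out GAL-YRA1 replicate 1 or 3 or GAL-YRA1Δi replicate 1 or 3 raised that adjusted p to 0.0989, 0.0802, 0.109 and 0.112. Of the MATa markers, STE2, MFA1, MFA2 and STE6 lay between 11.77 and 14.09 on all arrays, whereas BAR1, the pheromone protease gene, lay between 3.14 and 3.47, although the labelled genotype lists no change at it. These BAR1 values were below 4.70, the 95th percentile of the named probe sets taken as those of Schizosaccharomyces pombe, whose genes have no target here. The MATα genes STE3, MF(ALPHA)1 and MF(ALPHA)2 lay between 6.35 and 9.01.

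No R-loop removal gene passed the thresholds of the study's methods (adjusted p below 0.01 and at least 1.5-fold), and none passed at an adjusted p below 0.05 and 1.5-fold. Over all 5498 S. cerevisiae probe sets these rules called 0% and 0.400% in limma. The study's own list of altered genes is not empty and includes increases of less than 1.5-fold. Neither rule reproduced that list in the fit used here. The list names none of the 10 genes. The differences of the 10 genes ran from -0.10 for RNH201 to 0.25 for PIF1, and 6 of 10 were positive, beside 52.4% of all probe sets. At an unadjusted p below 0.05 in limma, 2 of 10 were higher, PIF1 and TOP2, where 9.79% of all probe sets were higher. None of the 10 was lower, where 6.31% of all were. Their median difference was 0.02 and the median of its size 0.07, beside 0.0091 and 0.11 over all probe sets. The 95% confidence interval of every one of the 10 lay inside 1.5-fold in either direction, as it did for 79.2% of all probe sets. RMA gives all arrays the same distribution, so it would hide any shift common to most transcripts. The RNA came from whole cultures, in which fewer cells expressing a gene and less of its RNA per cell cannot be told apart.

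**Figure D1:**
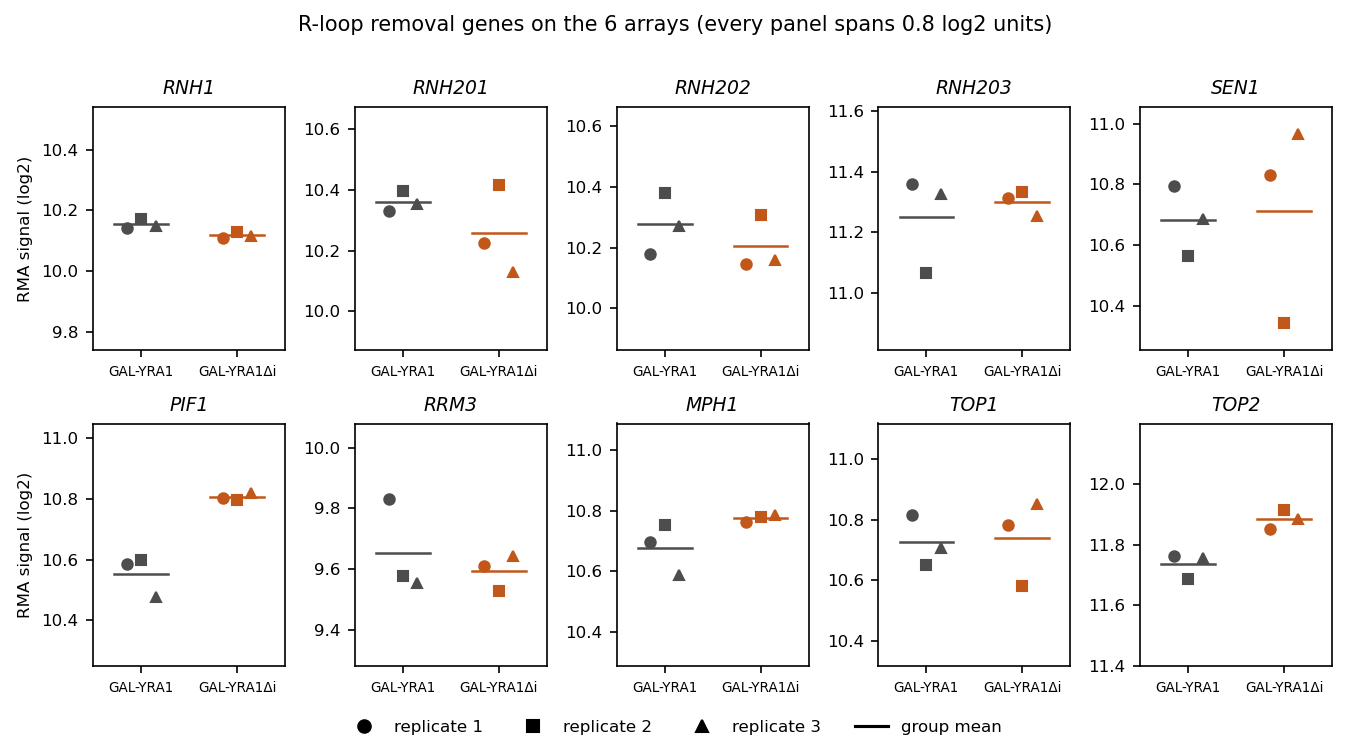
RMA signal (log2, y axis) of each R-loop removal gene on the 3 GAL-YRA1 and 3 GAL-YRA1Δi arrays (x axis), with symbols for the replicate number and a line at each group mean. All panels span the same number of log2 units but start at different levels. PIF1 and TOP2 lie higher on every GAL-YRA1Δi array, and SEN1 spreads most.

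Among the helicases, PIF1 differed most. Pif1 is a helicase that unwinds hybrids and G-quadruplexes and removes telomerase from chromosome ends. Its signal was 10.59, 10.60 and 10.48 in GAL-YRA1 replicates 1, 2 and 3 and 10.80, 10.80 and 10.82 in GAL-YRA1Δi replicates 1, 2 and 3. The groups did not overlap, and 0.20 separated the highest GAL-YRA1 array from the lowest GAL-YRA1Δi array. The means of 10.55 ± 0.07 and 10.81 ± 0.01 (SD, n = 3) differed by 0.25 (SE 0.06, 95% confidence interval 0.10 to 0.40), or 1.19-fold. The unadjusted p was 0.00636 and the adjusted p 0.140 in limma, the 246th lowest of the 5498 p-values. The difference was 0.22, 0.20 and 0.34 in the same-numbered pairs 1, 2 and 3. Its adjusted p was 0.0141 with array weights and ranged from 0.0141 to 0.508 over all alternatives.

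RRM3 encodes the close relative of Pif1 that travels with replication forks and helps them past proteins bound tightly to DNA. Its signal was 9.83, 9.58 and 9.55 in GAL-YRA1 replicates 1, 2 and 3 and 9.61, 9.53 and 9.64 in GAL-YRA1Δi replicates 1, 2 and 3. GAL-YRA1 replicate 1 was the highest of all, and the other 5 arrays overlapped. The difference was -0.06 (95% confidence interval -0.29 to 0.17, adjusted p = 0.819 in limma), and it was 0.03 without GAL-YRA1 replicate 1. Whether RRM3 and PIF1 differed from each other in their response was not tested.

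SEN1 encodes an RNA and DNA helicase that ends the transcription of many noncoding RNAs together with Nrd1 and Nab3. Its signal was 10.79, 10.57 and 10.69 in GAL-YRA1 replicates 1, 2 and 3 and 10.83, 10.34 and 10.97 in GAL-YRA1Δi replicates 1, 2 and 3. GAL-YRA1Δi cells thus held both the lowest and the highest value. With a difference of 0.03 (95% confidence interval -0.38 to 0.45, adjusted p = 0.952 in limma), SEN1 had the widest interval of the 10 genes. The sign changed with the arrays included, to -0.03 without GAL-YRA1 replicate 2 or GAL-YRA1Δi replicate 1 and -0.09 without GAL-YRA1Δi replicate 3, and the difference was 0.22 without GAL-YRA1Δi replicate 2.

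MPH1 encodes a helicase of the FANCM family that unwinds D loops and R loops at stalled forks. Its signal was 10.70, 10.75 and 10.59 in GAL-YRA1 replicates 1, 2 and 3 and 10.76, 10.78 and 10.79 in GAL-YRA1Δi replicates 1, 2 and 3. The groups did not overlap, by the narrow margin of 0.01, and the GAL-YRA1Δi arrays were the closer together (SD 0.01 against 0.08, n = 3). The difference was 0.10 (95% confidence interval -0.06 to 0.26, adjusted p = 0.569 in limma), and 0.05 without GAL-YRA1 replicate 3.

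**Figure D2:**
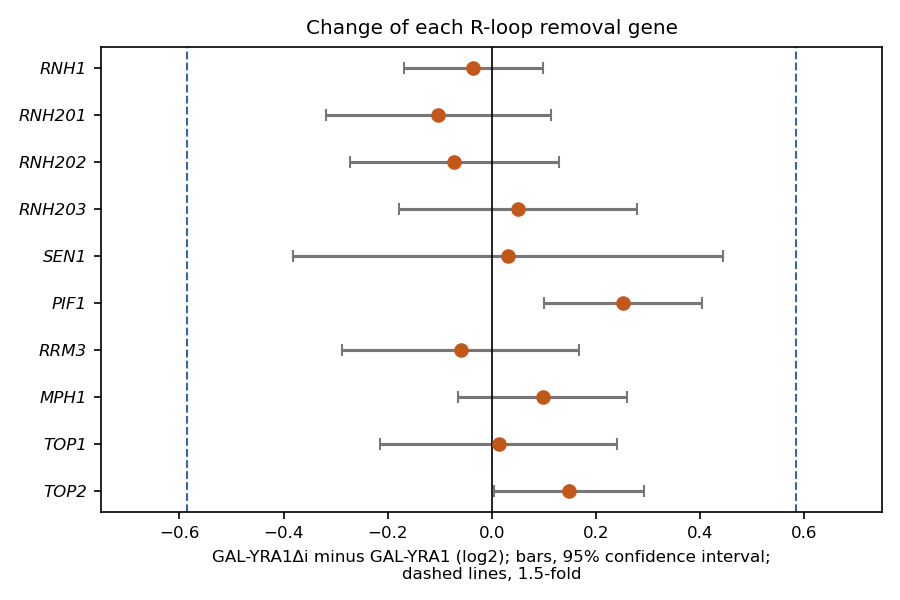
Difference GAL-YRA1Δi minus GAL-YRA1 (log2, x axis) for each R-loop removal gene (y axis), with the 95% confidence interval from limma as bars and 1.5-fold as dashed lines. The intervals of PIF1 (0.10 to 0.40) and TOP2 lie above 0, and all 10 lie between the dashed lines.

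The topoisomerase genes were TOP1 and TOP2. Top2 passes one DNA duplex through another, so it resolves supercoils as well as entangled chromosomes. TOP2 signal was 11.76, 11.69 and 11.76 in GAL-YRA1 replicates 1, 2 and 3 and 11.85, 11.91 and 11.88 in GAL-YRA1Δi replicates 1, 2 and 3. The groups lay apart by 0.09 at their nearest arrays. The means of 11.73 ± 0.04 and 11.88 ± 0.03 (SD, n = 3) differed by 0.15 (SE 0.06, 95% confidence interval 0.0038 to 0.29), or 1.11-fold, with an unadjusted p of 0.0458 and an adjusted p of 0.301 in limma. With replicate number as a block the unadjusted p was 0.0587. It was 0.0696 to 0.126 with any single array left out.

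Top1 nicks and reseals a single strand and relaxes the supercoils that transcription leaves behind it. TOP1 signal was 10.82, 10.65 and 10.71 in GAL-YRA1 replicates 1, 2 and 3 and 10.78, 10.58 and 10.85 in GAL-YRA1Δi replicates 1, 2 and 3. The groups overlapped throughout. The difference was 0.01 (95% confidence interval -0.21 to 0.24, adjusted p = 0.962 in limma), the smallest of the 10 genes in size. It was -0.02 without GAL-YRA1 replicate 2, -0.01 without GAL-YRA1Δi replicate 1 and -0.04 without GAL-YRA1Δi replicate 3.

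Yeast has a pair of RNases H. RNase H1 is a single protein encoded by RNH1, which cuts longer stretches of hybrid. RNH1 signal was 10.14, 10.17 and 10.15 in GAL-YRA1 replicates 1, 2 and 3 and 10.11, 10.13 and 10.12 in GAL-YRA1Δi replicates 1, 2 and 3. It varied least of the 10 genes, with a range of 0.06 over the 6 arrays against a median range of 0.38 over all probe sets. The groups did not overlap, yet only 0.01 lay between them. The difference was -0.04 (95% confidence interval -0.17 to 0.10), or 0.976-fold, with an adjusted p of 0.819 in limma.

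RNase H2 is a complex that also removes single ribonucleotides from DNA. Its catalytic subunit is Rnh201, and Rnh202 and Rnh203 are accessory subunits needed for activity. RNH201 signal was 10.33, 10.40 and 10.35 in GAL-YRA1 replicates 1, 2 and 3 and 10.23, 10.42 and 10.13 in GAL-YRA1Δi replicates 1, 2 and 3. GAL-YRA1Δi replicate 2 was the highest of all 6 arrays, while the other GAL-YRA1Δi arrays were the lowest. The difference was -0.10 (95% confidence interval -0.32 to 0.11, adjusted p = 0.669 in limma), and -0.16 with both arrays numbered 2 left out (adjusted p = 0.145 in limma). It was -0.18 without GAL-YRA1Δi replicate 2 and -0.04 without GAL-YRA1Δi replicate 3.

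RNH202 signal was 10.18, 10.38 and 10.27 in GAL-YRA1 replicates 1, 2 and 3 and 10.15, 10.31 and 10.16 in GAL-YRA1Δi replicates 1, 2 and 3. The groups overlapped, although the GAL-YRA1Δi array was the lower one in each same-numbered pair. The difference was -0.07 (95% confidence interval -0.27 to 0.13, adjusted p = 0.744 in limma). Single arrays moved it, to -0.02 without GAL-YRA1 replicate 2, -0.04 without GAL-YRA1Δi replicate 1, and -0.12 without GAL-YRA1 replicate 1 or GAL-YRA1Δi replicate 2. RNH203 signal was 11.36, 11.07 and 11.32 in GAL-YRA1 replicates 1, 2 and 3 and 11.31, 11.33 and 11.25 in GAL-YRA1Δi replicates 1, 2 and 3. A single low array, GAL-YRA1 replicate 2, set its sign. The difference was 0.05 (95% confidence interval -0.18 to 0.28, adjusted p = 0.849 in limma) with that array and -0.04 without it.

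Counted over the 10 genes, the groups did not overlap at 3 with higher values in GAL-YRA1Δi cells (PIF1, MPH1 and TOP2), beside 13.6% of all probe sets. They did not overlap at 1 with lower values (RNH1), beside 8.57% of all. The difference was positive in all 3 same-numbered pairs for the same 3 genes, beside 27.3% of all probe sets. It was negative in all 3 for RNH1 and RNH202, beside 23.3%. Where groups do not overlap, every pair must differ in the same direction. For PIF1, MPH1, TOP2 and RNH1 the pairs therefore restate the lack of overlap, and only RNH202 had overlapping groups. Spread was also low among these genes. Their median SD within a group was 0.10, beside 0.13 over all probe sets, and SEN1, PIF1 and RRM3 had the largest ranges over the arrays, at 0.62, 0.34 and 0.30.

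**Figure D3:**
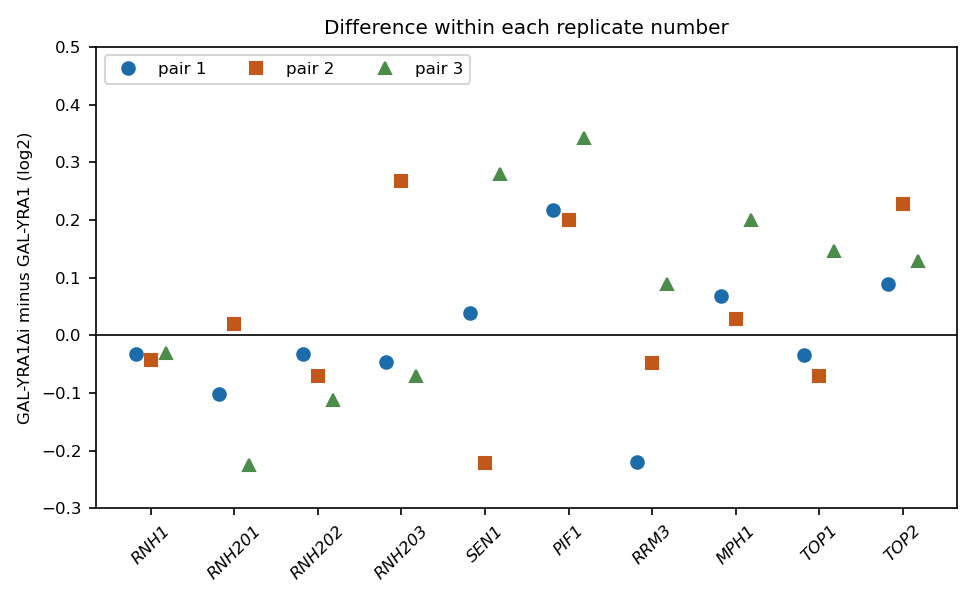
Difference GAL-YRA1Δi minus GAL-YRA1 (log2, y axis) within replicate numbers 1, 2 and 3 for each R-loop removal gene (x axis). PIF1, MPH1 and TOP2 lie above 0 in all 3 pairs, RNH1 and RNH202 below 0, and SEN1 spans -0.22 to 0.28.

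The arrays numbered 2 stood apart from those numbered 1 and 3 in both groups, and some of these genes moved with that number. SEN1 was lower on the replicate 2 array than on the mean of the others by 0.17 in GAL-YRA1 cells and 0.56 in GAL-YRA1Δi cells, and TOP1 by 0.11 and 0.24. RNH201 was higher there by 0.06 and 0.24, and RNH202 by 0.15 and 0.16. For PIF1 these differences were 0.07 and -0.01, smaller than its difference between groups. With both arrays numbered 2 left out, PIF1 differed by 0.28 and SEN1 by 0.16 (adjusted p = 0.0544 and 0.222 in limma). The labels give no day or batch behind the number.

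For the 3 genes with the largest ranges, the genes with the most similar profiles were sought, as those with the smallest root-mean-square difference of mean-centred values over the 6 arrays. Nearest to PIF1 were CDC20, the activator of the anaphase-promoting complex (0.03), and the kinase gene MCK1 (0.03), where the median over all probe sets was 0.18. CDC20 differed by 0.28 and MCK1 by 0.23 between groups. The profile of PIF1 includes its group difference, so these differences followed from the choice and are not separate evidence. Nearest to SEN1 were the uncharacterised frame YCR108C (0.02) and the threonine aldolase gene GLY1 (0.04), against a median of 0.23. Nearest to RRM3 were TUS1, an exchange factor for the GTPase Rho1 (0.02), and TAO3 (0.03), against a median of 0.17. With 6 arrays and 5498 probe sets, near profiles are to be found for many genes.

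The genes next to these on the chromosomes were read from the R64 gene table. PIF1 lies beside MFT1, a THO subunit gene, and OGG1, a glycosylase gene for oxidised guanine, which differed by 0.11 and 0.09 (adjusted p = 0.742 and 0.819 in limma). SEN1 lies beside ATG23, an autophagy gene, which differed by 0.45 (adjusted p = 0.157), and CRN1, which differed by 0.06. Beside RNH201 lies MSK1, a mitochondrial lysyl-tRNA synthetase gene, at -0.35 (adjusted p = 0.259). None of these neighbours passed the test. No coordinates are given, since the build behind the arrays is not named in the sources used here.

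Probe sets for S. pombe genes of the same names gave a view of background. Those for rnh1, rnh201, sen1, top1 and top2 had means from 3.13 to 3.49, below the limit of 4.70. The probe set for S. pombe mph1, which in that species encodes a spindle checkpoint kinase and not a helicase, had a mean of 5.83. All 10 S. cerevisiae genes lay above 4.70 on each of the 6 arrays, with means between 9.62 and 11.81.

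Next, the factors that work with these enzymes were examined in 5 lists, of which 44 of 45 genes had a named probe set. None passed either threshold over all genes. At an unadjusted p below 0.05 in limma 3 of 44 were higher and 2 lower, beside 9.79% and 6.31% of all probe sets, and 32 of 44 differences were positive, beside 52.4%. With replicate number as a block 5 were higher and 3 lower at that level, beside 14.7% and 10.8% of all probe sets. The block added TOP3, POL31, RTT103 and MHF2 (unadjusted p = 0.0146, 0.0389, 0.0368 and 0.00318) and took out PAP2. In the list of Sen1 partners and nuclear RNA end factors, 2 of 6 were higher without the block, beside the 9.79% of all probe sets, and the median difference was 0.22, beside 0.0091 over all. NRD1, whose product binds RNA and works with Sen1 to end noncoding transcripts, had 11.27, 11.13 and 11.01 in GAL-YRA1 replicates 1, 2 and 3 and 11.82, 11.67 and 11.88 in GAL-YRA1Δi replicates 1, 2 and 3. Every GAL-YRA1Δi array was at least 0.40 above every GAL-YRA1 array. The difference was 0.65 (SE 0.09, 95% confidence interval 0.42 to 0.88), or 1.57-fold, with an adjusted p of 0.0573 in limma. The adjusted p of NRD1 was 0.0437 with replicate number as a block, 0.00301 with array weights, 0.0273 without GAL-YRA1Δi replicate 2 and 0.0228 with both arrays numbered 2 left out, and up to 0.302 over the alternatives.

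PCF11, which encodes a cleavage factor subunit that ends transcription at polyadenylation sites, differed by 0.34 (95% confidence interval 0.19 to 0.49, adjusted p = 0.0822 in limma). It was 10.75, 10.74 and 10.77 in GAL-YRA1 replicates 1, 2 and 3 and 11.15, 11.03 and 11.11 in GAL-YRA1Δi replicates 1, 2 and 3. These groups lay 0.26 apart at their nearest arrays. Its adjusted p was 0.00516 with array weights and 0.0242 with both arrays numbered 2 left out, and 0.00516 to 0.380 over all alternatives. NAB3, the partner of Nrd1, differed by 0.25 with overlapping groups (adjusted p = 0.367 in limma). RAT1, the gene of a nuclear exonuclease, and RAI1, that of its partner protein, differed by -0.04 each. These lists were chosen with the genes that the study calls altered on the same arrays already known, so their counts are not independent evidence.

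**Figure D4:**
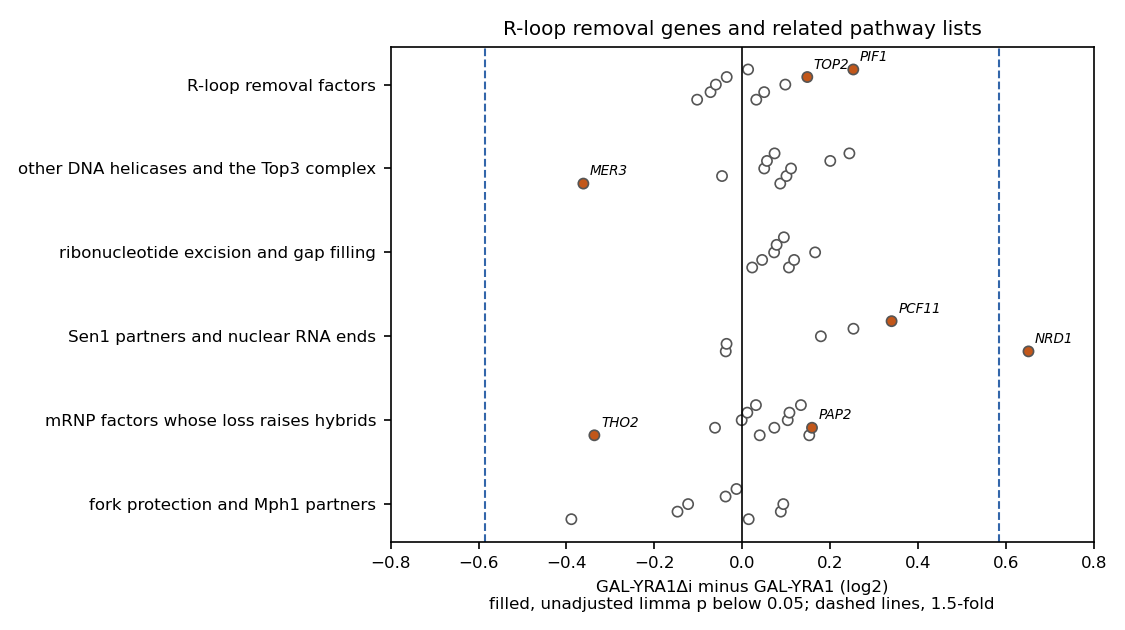
Difference GAL-YRA1Δi minus GAL-YRA1 (log2, x axis) of each measured gene of the R-loop removal set and of the 5 lists of related factors (y axis), filled where the unadjusted limma p was below 0.05. NRD1 at 0.65 is the only point outside 1.5-fold (dashed lines).

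Of the mRNP factors whose loss raises hybrids in yeast, 1 of 12 was higher and 1 lower at an unadjusted p below 0.05 in limma (9.79% and 6.31% of all probe sets), with a median of 0.06. THO2, a subunit gene of the THO complex that packages nascent mRNA, was 11.72, 11.61 and 11.54 in GAL-YRA1 replicates 1, 2 and 3 and 11.28, 11.17 and 11.41 in GAL-YRA1Δi replicates 1, 2 and 3. All GAL-YRA1Δi arrays were the lower ones. The difference was -0.34 (95% confidence interval -0.55 to -0.12, adjusted p = 0.159 in limma, 0.0486 with array weights, and 0.0486 to 0.500 over all alternatives). The other THO genes HPR1, MFT1 and THP2 differed by 0.01, 0.11 and 0.04, each with overlapping groups. PAP2, the nuclear poly(A) polymerase gene also called TRF4, differed by 0.16 (adjusted p = 0.288 in limma).

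In the list of other DNA helicases and the Top3 complex, none of the 10 was higher and 1 was lower at that level (9.79% and 6.31% of all probe sets), with a median of 0.08. MER3, a helicase gene of meiotic crossing over that RefSeq names HFM1, was the lower one. It was 8.69, 8.39 and 8.50 in GAL-YRA1 replicates 1, 2 and 3 and 8.10, 8.17 and 8.23 in GAL-YRA1Δi replicates 1, 2 and 3, a difference of -0.36 (adjusted p = 0.157 in limma, 0.0166 with array weights, 0.0492 with both arrays numbered 2 left out, and 0.0166 to 0.510 over all alternatives). The RecQ helicase gene SGS1 differed by 0.10 and the antirecombinase gene SRS2 by 0.06 (adjusted p = 0.704 and 0.843).

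The 8 genes that complete ribonucleotide excision after RNase H2, such as the flap nuclease gene RAD27 (0.05) and the ligase gene CDC9 (0.08), were all positive, beside 52.4% of all probe sets, with a median of 0.09. None passed an unadjusted p of 0.05 in limma, where 9.79% of all probe sets were higher and 6.31% lower. POL31, a subunit gene of DNA polymerase delta, had the lowest p of them, at a difference of 0.17 (adjusted p = 0.316). Of the 8 measured fork protection genes and Mph1 partners, 3 were positive and none passed that level without the block, with a median of -0.03. MHF2, which encodes a histone-fold partner of Mph1, had 10.85, 11.50 and 11.06 in GAL-YRA1 replicates 1, 2 and 3 and 10.61, 11.02 and 10.60 in GAL-YRA1Δi replicates 1, 2 and 3. The groups overlapped, with both arrays numbered 2 the highest of their group, and the difference was negative in each pair (-0.24, -0.47 and -0.46). Its mean difference was -0.39, with an adjusted p of 0.399 in limma and 0.0664 with the replicate block, and it was -0.21 without GAL-YRA1 replicate 2.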

How the data were processed

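Gene expression was measured on Affymetrix Yeast Genome 2.0 arrays in 3 GAL-YRA1 and 3 GAL-YRA1Δi cultures, and samples were grouped by their labels. The authors deposited log2 values for 10928 probe sets, which they had made by RMA from the array scans, and the submitters' processing notes also name limma. Software versions and the genome build are not given in the sources used here. Precision is limited by the number of arrays.

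Names came from the platform annotation and the RefSeq R64 gene table. They gave 5498 S. cerevisiae probe sets for 5449 genes and 1747 other named probe sets, taken as S. pombe. Any S. cerevisiae probe set annotated to several genes would also fall among those 1747. All 5498 S. cerevisiae probe sets were fitted without a filter by group with lmFit and eBayes of limma 3.58.1, run in R 4.3.3. Adjustment of p-values followed Benjamini and Hochberg over the 5498. The fit was tested on simulated data. No sequence is printed.

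The genes, lists and tests were chosen with earlier results of these data known. Named were all 10 genes, YRA1, the gene of lowest p in each list and those past an unadjusted p of 0.05, and the 2 nearest profiles of 3 genes. Other list genes and chromosomal neighbours given as examples were chosen after their values were seen.

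The labels share replicate numbers between groups. After subtraction of the group mean, arrays of the same number correlated at 0.34 (number 1), 0.69 (number 2) and 0.30 (number 3). Correlations between number 1 of either group and number 3 of the other were higher than those within number 1 or number 3 (0.66 and 0.58). Subtraction of a mean over 3 arrays ties all these correlations to each other, so they are not separate observations. These values therefore do not show that numbers 1 and 3 were pairs, and the labels name no shared batch or day. The shared numbers were nevertheless treated as pairs, and an alternative fit had them as a block. Further alternatives were array weights, robust eBayes, an intensity trend, a second quantile normalization, arrays shifted to equal medians, dim probe sets left out, every probe set tested, and each array left out. Leaving out both arrays numbered 2, and all alternatives for genes outside the 10, were added after the data were seen.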

Additional observations from a re-analysis of the deposited data

How the results depend on the processing

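None of the 10 R-loop removal genes passed either threshold under any of 15 alternatives in limma. The number of all probe sets past an adjusted p of 0.05 and 1.5-fold was 22 in the main fit described above. It was 79 with the replicate block, 217 with array weights and 231 with both arrays numbered 2 left out. With 1 array left out it ran from 0 to 115. At an adjusted p of 0.01 and 1.5-fold the number was 0 in the main fit and 152 with array weights. It was 89 with both arrays numbered 2 left out, 1 with an intensity trend and 3 with dim probe sets left out. With all probe sets tested it was 4, and with 1 array left out 0 to 29. The replicate block moved no member past an adjusted p of 0.05, and at an unadjusted p below 0.05 it left 1 of 10, PIF1, beside 25.5% of all probe sets. Of 150 recomputed differences of the 10 genes, 139 kept their sign and their side of an adjusted p of 0.05, 1 newly passed (PIF1 with array weights, adjusted p = 0.0141) and 10 changed sign. RNH203 changed sign to -0.045 with array weights and to -0.059 with both arrays numbered 2 left out. With 1 array left out, RNH203 ran from -0.042 to 0.10, SEN1 from -0.094 to 0.22, RRM3 from -0.11 to 0.028 and TOP1 from -0.044 to 0.093. The cause was not tested beyond the arrays left out. Since each gene had 1 probe set, no other probe set could be used. The intervals given show the precision reached with 3 arrays a group, and the smallest detectable difference was not computed.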
